A study of Mus musculus with 64 samples.

Results

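Epididymal white adipose tissue (eWAT) of FANKO mice, which lack *Nampt* in fat cells, was compared with that of wildtype (WT) mice at zeitgeber time 22 (ZT22), late in the dark phase and shortly before the lights come on. The 8 libraries of this comparison, 4 FANKO and 4 WT, were chosen by their depot, genotype and time point from the 64 libraries of the series. The series covers eWAT and brown adipose tissue (BAT) at ZT6, ZT10, ZT18 and ZT22, and the 24 eWAT libraries of the other time points served to ask whether a genotype effect at ZT22 differed from the effect earlier in the day. All mice were male and carried the *Nampt* tm1Jtree allele, in which an exon of *Nampt* is flanked by loxP sites, and were young adults fed chow in the experiment the study describes. The FANKO mice also carried Adiponectin-Cre, which acts in adipocytes and not in the other cells of the depot, whereas the WT controls were littermates without Cre. The labels give a replicate number within each group and nothing on how samples were collected, so p-values measure the spread between these samples.

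NAMPT is the rate-limiting enzyme of the salvage pathway that makes NAD+ from nicotinamide. Cells meet stress with several transcriptional programmes. In the integrated stress response, kinases that phosphorylate eIF2α favour translation of the transcription factor ATF4, which raises genes of amino acid uptake, serine and one-carbon metabolism and tRNA charging, and the secreted factors FGF21 and GDF15. In the unfolded protein response, sensors in the endoplasmic reticulum (ER) raise chaperones of that compartment. The heat shock response, driven by HSF1, raises cytosolic chaperones, and it follows feeding, body temperature and time of day in many tissues. NRF2 raises glutathione synthesis and other antioxidant enzymes.

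Promoter sequence is shown for stress genes whose window held a known response element, among them *Hspe1*, which did not pass the test at ZT22. ATF4 binds, as a dimer with C/EBP proteins, elements with the core TGATGCAA, and HSF1 binds repeats of GAA in alternating orientation, here searched as GAA, any 2 bases, TTC, any 2 bases and GAA, both on either strand and in the 250 bases before each RefSeq transcription start (GRCm38.p6). The ATF4 core was in 248 of 27025 genes with a promoter in the table (0.918%) and in 8 of the 34 such genes of the ATF4 list (23.5%), and it was also in *Herpud1* of the ER list. Windows of the ATF4 list that held it and were not printed belong to *Aars*, which was higher in FANKO, and to *Pycr1* and *Vldlr*, which did not pass the test. The HSF1 repeat was in 139 genes (0.514%) and in 3 of 44 heat shock genes (6.82%), of which *Hspd1* and *Hspe1* share a stretch between their opposed starts, and the third is *Dnajb6*. *Hspa8*, *Hspa4*, *Dnaja1*, *Ahsa1* and *Hsp90aa1*, whose effects over the day are given below, are not among these 3. Capitals mark the matches, which describe letters and are not shown to be bound. Each sequence runs 5′ to 3′ on the strand of its gene and ends at the base before the start.
Fgf21 (chr7:45615491-45615740, minus strand): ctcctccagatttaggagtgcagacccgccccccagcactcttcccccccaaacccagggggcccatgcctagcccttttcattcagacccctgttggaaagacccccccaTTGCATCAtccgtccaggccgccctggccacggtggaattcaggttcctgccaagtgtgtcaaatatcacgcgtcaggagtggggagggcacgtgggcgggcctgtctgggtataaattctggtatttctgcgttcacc
Chac1 (chr2:119350992-119351241, plus strand): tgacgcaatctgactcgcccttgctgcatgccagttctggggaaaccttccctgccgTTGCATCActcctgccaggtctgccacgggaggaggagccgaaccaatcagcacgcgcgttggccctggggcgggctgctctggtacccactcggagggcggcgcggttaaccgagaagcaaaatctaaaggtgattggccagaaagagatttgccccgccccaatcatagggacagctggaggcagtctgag
Slc7a11 (chr3:50443614-50443863, minus strand): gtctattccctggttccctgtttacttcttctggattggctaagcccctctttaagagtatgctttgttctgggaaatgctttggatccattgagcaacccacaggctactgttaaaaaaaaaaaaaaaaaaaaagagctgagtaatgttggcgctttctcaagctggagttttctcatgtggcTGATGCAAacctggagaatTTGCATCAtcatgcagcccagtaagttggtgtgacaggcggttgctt
Atf3 (chr1:191183334-191183583, minus strand): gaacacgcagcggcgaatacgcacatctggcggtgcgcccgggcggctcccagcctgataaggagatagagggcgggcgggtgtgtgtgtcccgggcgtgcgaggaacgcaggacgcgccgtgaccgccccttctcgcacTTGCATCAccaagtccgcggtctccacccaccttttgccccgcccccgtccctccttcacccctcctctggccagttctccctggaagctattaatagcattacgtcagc
Nupr1 (chr7:126625471-126625720, minus strand): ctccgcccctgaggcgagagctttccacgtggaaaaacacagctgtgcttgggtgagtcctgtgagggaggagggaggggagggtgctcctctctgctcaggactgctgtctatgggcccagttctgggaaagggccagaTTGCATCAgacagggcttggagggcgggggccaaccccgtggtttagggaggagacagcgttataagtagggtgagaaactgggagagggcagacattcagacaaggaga
Herpud1 (chr8:94386179-94386428, plus strand): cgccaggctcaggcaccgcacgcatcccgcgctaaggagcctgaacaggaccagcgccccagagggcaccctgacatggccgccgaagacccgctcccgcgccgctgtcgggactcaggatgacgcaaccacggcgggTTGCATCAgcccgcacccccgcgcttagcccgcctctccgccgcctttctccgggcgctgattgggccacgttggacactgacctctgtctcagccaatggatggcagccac
Hspe1 (chr1:55087898-55088147, plus strand): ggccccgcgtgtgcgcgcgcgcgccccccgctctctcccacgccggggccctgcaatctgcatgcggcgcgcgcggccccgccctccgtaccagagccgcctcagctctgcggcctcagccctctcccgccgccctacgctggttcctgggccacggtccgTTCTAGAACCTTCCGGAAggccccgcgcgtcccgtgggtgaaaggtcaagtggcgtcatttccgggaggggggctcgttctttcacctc
The match lies 139 bases before the start in *Fgf21*, 193 in *Chac1*, 110 in *Atf3* and *Nupr1*, and 112 in *Herpud1*, and *Slc7a11* holds 2 matches, 66 and 47 bases before it. *Hspe1* holds 2 overlapping matches to the HSF1 repeat, 89 and 84 bases before it.

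The libraries held 7456998 to 22233314 counts assigned to genes in FANKO and 13568163 to 21370518 in WT. The share of counts from mitochondrial genes was 6.11% to 14.3% in FANKO and 3.88% to 10.6% in WT, 1.63-fold higher in FANKO (two-sided exact permutation p = 0.171). That test ignored the replicate number, and FANKO was above the same-numbered WT library in 4 of 4 pairs. The part of this share in the gene results was not tested. Of 52636 genes in the table, 19059 had enough counts to be tested. The 10 adipocyte markers were all detected, which shows fat tissue but cannot tell eWAT from BAT. Their summed level was 0.833-fold in FANKO, with 5 of the 10 lower. Markers of other cells also differed. The sum of 8 fibroblast and progenitor genes was 1728 to 2184 CPM (counts scaled to a common library size by the TMM method) in FANKO against 3829 to 4847 in WT, and 8 of 8 passed as lower. The sum of 7 mesothelium genes was 187 to 248 CPM against 420.5 to 486, and that of 7 T cell genes was 12.4 to 25.97 CPM against 3.04 to 10.6. The sum of 7 brown adipocyte genes was 59.6 to 92.3 CPM against 24.7 to 43.6, but 1 of the 7 passed as higher (*Cidea*, 28.3, 35.9, 45.6 and 53.3 CPM in FANKO and 4.37, 3.67, 8.37 and 4.97 CPM in WT) and 1 as lower (*Dio2*, log2 fold change -2.83). The groups did not overlap for any of these sums, each with an exact permutation p of 0.0286 (two-sided), which is the floor for 4 against 4, and of 0.0762 after Benjamini-Hochberg adjustment over these measures. Of 10 macrophage markers, 4 were higher and none lower, while their sum overlapped between the groups (781 to 1207 CPM in FANKO and 857 to 1053 in WT, p = 0.429 by the same permutation test). In whole tissue, fewer cells of a type and less RNA per cell cannot be told apart, and the part of these cells in the gene results was not tested. WT library 4 stood apart, with 99.5 CPM of skeletal muscle genes against 25.1 to 26.7 in the other WT libraries. Most of this sum was 1 gene, *Acta1*, with 1316 counts against 279, 387 and 469 in WT libraries 1, 2 and 3. Other muscle genes such as *Actn3* (50 against 58, 74 and 57) and *Mb* (2 against 8, 9 and 8) were not raised in it. FANKO library 2 held 59.2 CPM of epididymis genes. Without both libraries the genes higher and lower at ZT22 were 1936 and 1317.

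*Nampt* itself (ENSMUSG00000020572, chromosome 12, 32819545 to 32853349, on GRCm38) was lower in FANKO. The WT libraries held 183, 157, 223 and 172 CPM and the FANKO libraries 121, 112, 129 and 117 CPM, so that the groups did not overlap. The log2 fold change was -0.62 ± 0.11 (SE, n = 4 per group, adjusted p = 9.57e-05, edgeR quasi-likelihood test with Benjamini-Hochberg adjustment over all genes, as for every adjusted p that follows). The remaining level was 0.651 of that in WT, in RNA of all cells of the depot and over a transcript of which the deletion removes 1 exon. Its log2 fold change was -1.14 at ZT18, -0.30 at ZT10 and -0.07 at ZT6, and the latter pair did not pass the threshold of 0.01 (adjusted p = 0.0384 at ZT10 and 0.63 at ZT6). At ZT22 the difference of the *Nampt* effect from the mean of the other time points was -0.11 ± 0.13 (adjusted p = 0.813).

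At ZT22, 2351 genes were higher in FANKO eWAT (12.3% of those tested) and 1955 were lower (10.3%) at an adjusted p below 0.01. Of these, 704 were more than 2-fold higher (3.69%) and 763 more than 2-fold lower (4%). The higher genes made up 54.6% of the calls, but 27.8% with scaling to library size alone (1237 higher, 3209 lower), which moved the median log2 fold change of all genes from −0.03 to −0.21. Directions below are relative to the TMM scale, on which most genes are taken as equal between the groups.

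Most genes of the integrated stress response were higher in FANKO at ZT22. Of 40 tested genes of the ATF4 list, 28 were higher (70% against 12.3% of all genes) and 2 were lower (10.3% of all genes). More than 2-fold higher were 15 of the 28. The median log2 fold change of the 40 genes was 0.64, and that of all genes −0.03. In 28 members each FANKO library was above each WT library, and in 2 below, beside 15.3% and 14.9% of all genes. Without WT library 4 and FANKO library 2, 25 members were higher and 2 lower, beside 1936 and 1317 of 19489 genes.

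*Fgf21*, which encodes a secreted hormone of nutrient stress (ENSMUSG00000030827, chromosome 7, 45613886 to 45615490), had the largest increase of all genes that met the naming rule. Its level was 0.806, 0.290, 0.374 and 0 CPM in the WT libraries and 12.7, 20.9, 9.32 and 18.8 CPM in the FANKO libraries. It was thus nearly absent from WT eWAT and present in each FANKO library, with a log2 fold change of 5.37 ± 0.48 (adjusted p = 1.77e-09). *Gdf15*, another secreted factor of the list, remained low in absolute terms, with 0.269, 0.0965, 0.234 and 0.142 CPM in WT and 2.94, 3.502, 2.65 and 2.89 CPM in FANKO. Its log2 fold change was 3.98 ± 0.56 (adjusted p = 2.47e-06).

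Of the transcription factors in the list, *Atf4*, *Ddit3*, *Atf5*, *Atf3* and *Cebpg* were higher, and *Cebpb* did not pass (log2 fold change 0.35, adjusted p = 0.189). *Atf4* (ENSMUSG00000042406, chromosome 15, 80255184 to 80257541) held 99.3, 92.8, 79.0 and 62.3 CPM in the WT libraries and 207, 199, 173 and 217 CPM in the FANKO libraries, 2.39-fold higher (adjusted p = 2.73e-08). *Ddit3*, which encodes CHOP, rose 2.56-fold, from 24.9, 23.4, 22.8 and 17.7 CPM to 56.6, 55.1, 64.9 and 50.7 CPM. The groups stood apart for both genes. The *Atf5* log2 fold change was 1.91 ± 0.18, and that of *Atf3* 1.01 ± 0.29, with overlapping libraries at 5.85, 6.42, 7.48 and 3.90 CPM in WT and 10.8, 16.3, 13.3 and 6.57 CPM in FANKO.

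The feedback regulators *Trib3* and *Ppp1r15a* were among the clearest increases of the list, and *Chac1*, which is not such a regulator, rose too. *Trib3*, a pseudokinase that restrains ATF4 and CHOP (ENSMUSG00000032715, chromosome 2, 152337422 to 152344032), was at 3.83, 5.21, 4.81 and 5.11 CPM in WT and at 58.0, 34.2, 33.8 and 60.4 CPM in FANKO. Every FANKO library was above every WT library, and the log2 fold change was 3.27 ± 0.26 (adjusted p = 2.41e-10). *Ppp1r15a*, the GADD34 subunit that directs the phosphatase to eIF2α, had 9.54, 10.1, 7.15 and 8.94 CPM in WT and 24.04, 24.3, 24.1 and 25.1 CPM in FANKO. The FANKO libraries hardly differed from each other, and the change was 2.73-fold (adjusted p = 4.76e-10). *Chac1*, which degrades glutathione, held 5.31, 7.43, 3.37 and 3.41 CPM in WT and 13.9, 28.6, 15.3 and 31.6 CPM in FANKO, with no overlap and a log2 fold change of 2.19 ± 0.30.

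Among targets in metabolism, *Slc7a11*, the cystine importer (ENSMUSG00000027737, chromosome 3, 49892526 to 50443614), had 1.28, 1.11, 1.68 and 1.21 CPM in WT and 26.2, 36.0, 21.2 and 23.9 CPM in FANKO, 20.1-fold higher. *Mthfd2*, a mitochondrial enzyme of one-carbon metabolism, had 5.58, 5.26, 7.29 and 6.46 CPM in WT and 51.8, 37.4, 43.3 and 45.2 CPM in FANKO, 7.17-fold higher. Neither gene overlapped between the groups. The amino acid transporters *Slc7a5* and *Slc3a2* had log2 fold changes of 1.91 and 1.04, and the tRNA synthetases *Cars*, *Sars*, *Gars*, *Aars*, *Nars* and *Wars* had log2 fold changes of 1.15, 1.07, 0.75, 0.70, 0.59 and 0.42, all past the threshold. *Cars*, the gene for cysteinyl-tRNA synthetase, had the smallest p of the list (25.9, 22.5, 26.6 and 21.9 CPM in WT and 61.0, 52.3, 49.9 and 52.9 CPM in FANKO, adjusted p = 8.66e-11).

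The list did not move as a block. *Cth*, which makes cysteine from cystathionine, was lower, with 10.01, 9.65, 18.1 and 11.4 CPM in WT and 6.68, 2.95, 3.73 and 3.94 CPM in FANKO, and a log2 fold change of -1.57 ± 0.30 (adjusted p = 0.000166). *Stc2*, a secreted glycoprotein, was also lower (-1.02 ± 0.18, adjusted p = 5.55e-05). The serine synthesis genes did not pass: *Phgdh* had a log2 fold change of -0.05, *Psat1* of 0.31 and *Psph* of -0.05 (adjusted p = 0.866, 0.0644 and 0.922). *Asns*, asparagine synthetase, was at 122, 98.1, 113 and 103 CPM in WT and 129.9, 103, 129 and 126 CPM in FANKO, overlapping groups with a log2 fold change of 0.16 ± 0.13 (adjusted p = 0.367).

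**Figure D1:**
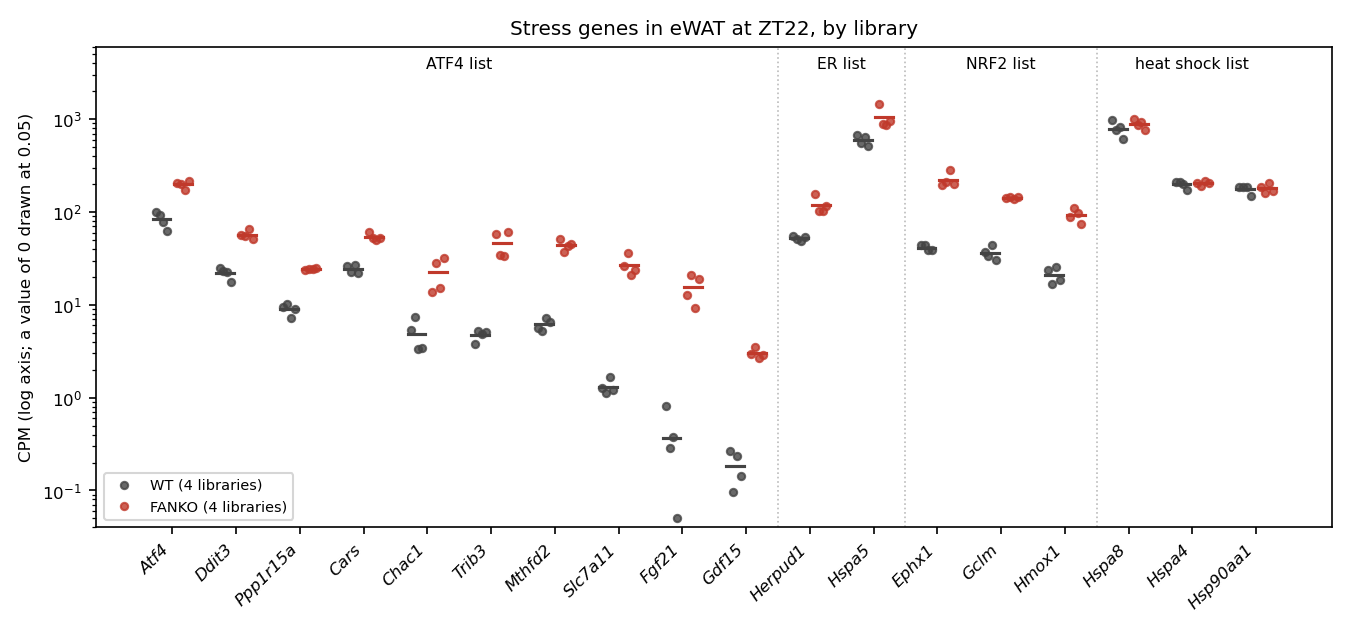
Levels of 18 stress genes in the 8 eWAT libraries at ZT22, in CPM on a log axis, each point 1 library and each bar the mean of a genotype. The FANKO libraries of the ATF4, ER and NRF2 genes drawn lie above the WT libraries, whereas *Hspa8*, *Hspa4* and *Hsp90aa1* overlap.

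Genes of the unfolded protein response were higher in part. Of 34 genes tested, 16 were higher (47.1% against 12.3% of all genes) and none was lower in edgeR (10.3% of all genes). The median log2 fold change was 0.34. With library size alone, 10 were higher and 1 was lower, beside 1237 and 3209 of all 19059 genes. At an unadjusted p below 0.05, 22 were higher and 1 was lower, beside 21.6% and 20.9% of all genes. Several members serve ER-associated degradation, which draws misfolded proteins out of the ER. *Derl1*, a channel component of it, had 253, 254, 251 and 200.01 CPM in WT and 546, 459, 478 and 469 CPM in FANKO, 2.04-fold higher with no overlap (adjusted p = 1.23e-08). *Sel1l*, the scaffold of the HRD1 ligase, rose 1.65-fold (adjusted p = 1.46e-08), and *Herpud1* (ENSMUSG00000031770, chromosome 8, 94386438 to 94395377), which organises that complex, rose 2.31-fold, from 54.8, 51.3, 48.6 and 53.5 CPM to 158, 104, 103 and 117 CPM. Others of this kind did not pass: *Syvn1*, which encodes the HRD1 ligase itself, had a log2 fold change of -0.36 (adjusted p = 0.0485), *Edem1* one of -0.03 and *Derl2* one of 0.12. The co-chaperone gene *Dnajb9* rose 2.15-fold. *Hspa5*, which encodes the main ER chaperone BiP, had 684, 552, 641 and 514 CPM in WT and 1472, 896, 866 and 964 CPM in FANKO. All FANKO libraries were above the WT ones, with FANKO library 1 far above the other 3, and the log2 fold change was 0.81 ± 0.17. *Pdia3* and *Calr*, chaperones of glycoprotein folding, did not pass (log2 fold changes of 0.09 and 0.29, adjusted p = 0.568 and 0.0173).

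NRF2 and antioxidant genes were higher in 21 and lower in 1 of 42 (50% higher, against 12.3% higher and 10.3% lower of all genes), with a median log2 fold change of 0.47. *Ephx1*, an epoxide hydrolase, had 44.3, 43.9, 38.6 and 39.0 CPM in WT and 194, 213, 280.4 and 202 CPM in FANKO, 5.37-fold higher (adjusted p = 6.8e-12). The subunits of glutamate-cysteine ligase, the first step of glutathione synthesis, rose 3.91-fold (*Gclm*) and 2.28-fold (*Gclc*). *Hmox1*, heme oxygenase 1, had 23.6, 16.7, 25.5 and 18.7 CPM in WT and 89.3, 109.5, 96.7 and 74.3 CPM in FANKO. The groups did not overlap for any of these 4 genes. *Txnrd1*, thioredoxin reductase, did not pass at ZT22 (log2 fold change 0.17 ± 0.11, adjusted p = 0.241). *Maff*, a small MAF factor that pairs with NRF2 and that the immediate early list held, rose 12.7-fold, from 3.70, 4.68, 5.002 and 4.19 CPM to 50.2, 72.6, 60.5 and 41.1 CPM.

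Chaperones and proteases of mitochondria fold imported proteins and clear damaged ones. In edgeR, 7 of 15 genes were higher (46.7% against 12.3% of all genes) and none was lower (10.3% of all genes). At an unadjusted p below 0.05, 11 were higher and 0 lower, beside 21.6% and 20.9% of all genes. The median log2 fold change was 0.40. *Hspa9*, mortalin, had 454, 417, 550.0 and 422 CPM in WT and 1010.2, 801, 999 and 979 CPM in FANKO, 2.05-fold higher. The matrix protease *Lonp1*, the inner membrane protease *Afg3l2* and the HSPA9 exchange factor *Grpel1* rose 1.88-, 1.66- and 1.60-fold. The chaperonin genes *Hspd1* and *Hspe1* did not pass, with log2 fold changes of 0.05 and 0.33 (adjusted p = 0.799 and 0.0799).

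Few heat shock chaperones passed at ZT22. Of 53 genes, 6 were higher (11.3% against 12.3% of all genes) and 2 were lower (10.3% of all genes). The median log2 fold change was 0.13, which turned to −0.06 with library size alone. The 6 were *Bag1*, *Cct7*, *Hspb8*, *Cryab*, *Hspbp1* and *Dnaja2*, at log2 fold changes of 0.81, 0.43, 0.68, 1.08, 0.49 and 0.34, and without FANKO library 2 there were 10. With library size alone, 3 were higher and 7 lower, beside 1237 and 3209 of all 19059 genes. The 2 lower genes were *Hspa2*, a testis-enriched HSP70 (-1.21 ± 0.23), and *Hspb7*, a small heat shock protein of muscle (-3.25 ± 0.60, 2.62, 8.16, 4.02 and 5.89 CPM in WT and 0.401, 0.553, 0.301 and 1.05 CPM in FANKO). *Hspa8*, the constitutive HSP70 (ENSMUSG00000015656, chromosome 9, 40800984 to 40810087), had 974, 774, 815 and 608 CPM in WT and 996, 877, 927 and 765 CPM in FANKO. These overlapped, with a log2 fold change of 0.17 ± 0.14 (adjusted p = 0.368). *Hsp90aa1* had 188, 187, 186 and 149.8 CPM in WT and 186, 159.6, 204 and 168 CPM in FANKO (0.01 ± 0.13, adjusted p = 0.961). The inducible genes *Hspa1a* and *Hspa1b* are near-identical copies whose reads the counting may have split, so their values (log2 fold changes of 0.23 and -0.69, adjusted p = 0.676 and 0.0527) are uncertain.

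**Figure D2:**
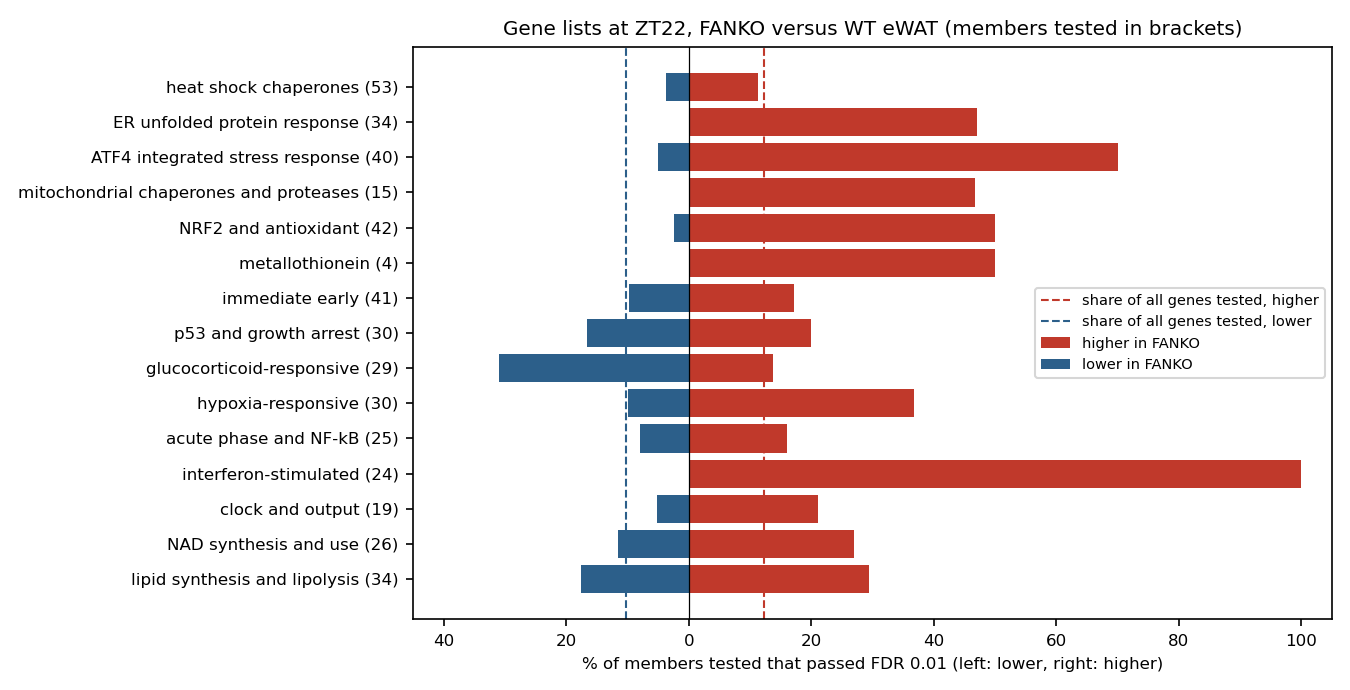
Share of the tested members of each gene list that passed an adjusted p below 0.01 at ZT22, higher in FANKO to the right and lower to the left, with the number tested in brackets and dashed lines at the shares of all genes (12.3% and 10.3%). The ATF4 list reached 70% higher and the heat shock list 11.3%.

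Other lists that stress can move were mixed. The shares of higher members in the immediate early (17.1%), acute phase (16%) and glucocorticoid (13.8%) lists lay near the 12.3% of all genes, and those of the p53 and hypoxia lists were 20% and 36.7%. For the counts of lower members that follow, the share of all genes was 10.3%. Of 29 glucocorticoid-responsive genes, 9 were lower and 4 higher. The lower ones included *Tsc22d3* (0.358-fold, adjusted p = 2.44e-07), *Klf15* (0.410-fold, adjusted p = 1.2e-06) and *Angptl4* (0.352-fold), and the higher ones *Hsd11b1*, which makes active glucocorticoid (2.15-fold). Of 30 p53 and growth arrest genes, 6 were higher, among them *Tigar* (1.67-fold) and *Tnfrsf10b* (2.18-fold), and 5 were lower, among them *Sesn1* (0.657-fold). Of 30 hypoxia-responsive genes, 11 were higher, with *Egln3* at 4.14-fold and *Aldoa*, a glycolytic enzyme, at 3.30-fold, and 3 were lower, with *Pfkfb3*, an activator of glycolysis, at 0.224-fold. The 41 immediate early genes were higher in 7 and lower in 4, the 25 acute phase and NF-kB genes higher in 4 and lower in 2, and the 4 metallothionein-related genes higher in 2, *Slc30a1* and *Mt1*. *Mt1*, a metal-binding protein gene, had overlapping libraries, and its call was lost without WT library 1, 2 or 3 or FANKO library 1, 3 or 4. With library size alone neither *Slc30a1* nor *Mt1* passed. With library size alone, the genes higher and lower were 2 and 10 of the glucocorticoid list, 3 and 8 of the p53 list and 2 and 4 of the immediate early list. Of all 19059 genes, 1237 and 3209 were higher and lower on that scale. Without WT library 4 and FANKO library 2 these lists gave 4 and 4, 2 and 3, and 4 and 2, beside 1936 and 1317 of 19489 genes.

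All 24 interferon-stimulated genes tested were higher at ZT22 (12.3% of all genes), 23 of them without overlap (15.3% of all genes). Their log2 fold changes ran from 0.74 to 4.72, with a median of 2.36. *Ifit1* held 7.73, 8.88, 4.35 and 10.51 CPM in WT and 118, 209, 212 and 56.6 CPM in FANKO, and *Irf7*, the transcription factor that amplifies interferon, held 11.8, 11.6, 11.0 and 15.8 CPM in WT and 112, 207, 270.4 and 57.1 CPM in FANKO. FANKO library 4 was the lowest and library 3 the highest of the FANKO libraries for both, and each was above the WT libraries. The T cell markers were also higher in FANKO, as given above, as were 4 of 10 macrophage markers, and their part in this was not tested. Of 26 genes of NAD synthesis and use, 7 were higher (26.9% against 12.3% of all genes), among them *Parp1* and *Nmnat3* (1.45- and 1.81-fold). The 3 lower ones, a share near the 10.3% of all genes, included *Nampt* and, at 0.194-fold, the nicotinamide methyltransferase gene *Nnmt*. Of 34 lipid genes, 10 were higher (29.4% against 12.3% of all genes), with *Slc2a4* and *Dgat1* at 2.36- and 1.86-fold. Another 6 were lower (10.3% of all genes), with *Plin4* and *Plin1* at 0.540- and 0.640-fold.

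The largest increases beside *Fgf21* were those of *Ccdc92*, *Aspg*, *Sorcs2*, *Oasl1*, *Oas3*, *Phospho1* and *Ifit1bl1*, with log2 fold changes of 5.24, 5.13, 4.95, 4.75, 4.72, 4.65 and 4.42. *Oasl1*, *Oas3* and *Ifit1bl1* are interferon-induced genes of families with similar copies, among which reads may be split. *Aspg*, an asparaginase gene, was at 2.15, 3.43, 2.94 and 1.49 CPM in WT and 96.7, 110.4, 86.4 and 68.4 CPM in FANKO, with no overlap. The largest decreases were those of *Dnah3*, *Sfrp5*, *C6*, *Serpina1a*, *Lrg1*, *Folh1*, *Wfdc21* and *Emp1*, with log2 fold changes of -3.49, -3.43, -3.39, -3.25, -3.24, -3.22, -2.98 and -2.74. *C6*, a component of the terminal complement complex, was at 62.3, 57.7, 56.7 and 78.6 CPM in WT and 3.87, 8.25, 6.37 and 4.46 CPM in FANKO. *Lrg1*, a secreted glycoprotein, was at 94.9, 126, 96.2 and 107 CPM in WT and 7.74, 13.3, 11.1 and 11.9 CPM in FANKO. Neither overlapped. The progenitor and mesothelium markers were lower in the same libraries, and their part in these decreases was not tested.

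Whether the genotype effect at ZT22 differed from that at other times was asked in the same fit, as the log2 fold change at ZT22 minus the mean of those at ZT6, ZT10 and ZT18. At an adjusted p below 0.01, 2 genes had a more positive effect at ZT22 (0.0105% of genes) and 5 a more negative one (0.0262%). At 0.05 there were 69 (0.362%), and at an unadjusted p below 0.05 there were 2036 (10.7%), 4.86% more positive and 5.82% more negative. The counts of 2 and 5 rested on single libraries, and fell to 1 and 0 without FANKO ZT22 library 1, 1 and 1 without WT ZT22 library 1 or FANKO ZT22 library 2, and rose to 5 and 11 without WT ZT18 library 4. Taken singly, the effect at ZT22 differed from that at ZT6 in 25 genes (0.131%) and from that at ZT10 in 47 (0.247%) at an adjusted p below 0.01 (edgeR). Against ZT18 the count was 0 (0% of genes, edgeR), with 1177 genes at an unadjusted p below 0.05 (6.18%). At the other time points themselves, 3037, 2869 and 1495 genes were higher in FANKO (15.9%, 15.1% and 7.84%) at ZT6, ZT10 and ZT18.

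*Plau*, which encodes urokinase (ENSMUSG00000021822, chromosome 14, 20836660 to 20843385), had the smallest p in this difference. Its level at ZT22 was 66.6, 70.2, 73.3 and 82.0 CPM in the WT libraries and 138, 146, 146 and 146 CPM in the FANKO libraries, which did not overlap. The log2 fold change was 0.98 at ZT22, 0.46 at ZT18, -0.69 at ZT10 and -0.48 at ZT6. *Plau* was thus lower in FANKO at ZT6 and ZT10 (adjusted p = 0.0063 and 0.000269), did not pass at ZT18 (0.0146) and was higher at ZT22 (2.88e-06), with a difference of 1.22 ± 0.16 (adjusted p = 0.000422). The WT mean was 78.5 ± 4.43 CPM at ZT10 and 73.1 ± 6.55 at ZT22, and the FANKO mean went from 48.3 ± 6.93 CPM (SD, n = 4) at ZT10 to 144 ± 4.13 at ZT22. The call stood without any single eWAT library and was lost only, among the alternatives run, when ZT10 was left out of the other time points (adjusted p = 0.0445).

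*Lsm11*, part of the U7 particle that processes histone mRNA, had the other more positive effect. It was at 8.67, 8.30, 9.86 and 7.38 CPM in WT and 30.4, 33.3, 27.2 and 29.5 CPM in FANKO at ZT22, with no overlap. Its log2 fold change was 1.81 at ZT22 and 1.60 at ZT18, and 0.57 and 0.60 at ZT6 and ZT10 (difference 0.89 ± 0.14, adjusted p = 0.00434). The call was lost without WT ZT22 library 1, 2 or 4 or FANKO ZT22 library 1 or 2, where its adjusted p was at most 0.0254.

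Of the genes with a more negative effect at ZT22, *Dram1*, a lysosomal target of p53, was the member of the stress lists that passed. It was at 188, 193, 218 and 219.9 CPM in WT and 123, 127, 143 and 134 CPM in FANKO, which did not overlap. The log2 fold change was -0.64 at ZT22 and -0.42 at ZT18, against 0.19 at ZT6 and 0.33 at ZT10 (difference -0.67 ± 0.11, adjusted p = 0.00424). The call was lost without WT ZT22 library 3 or 4 or FANKO ZT22 library 1 or 2, where the adjusted p reached 0.0254. *Rgcc*, a regulator of the cell cycle, was at 186, 211, 178 and 176 CPM in WT and 72.4, 79.9, 94.2 and 86.3 CPM in FANKO. Its log2 fold change was -1.17 at ZT22 (difference from the mean of the other times -0.73 ± 0.11, adjusted p = 0.00424). The *Rgcc* call was lost without library 1 or 2 of either genotype at ZT22 (adjusted p up to 0.0254).

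*Slc25a25*, an ATP-Mg/phosphate carrier of mitochondria, was at 135, 127, 98.1 and 63.0 CPM in WT and 35.5, 44.8, 38.1 and 49.9 CPM in FANKO at ZT22. The groups did not overlap, though WT library 4 was well below the other WT libraries. Its WT level rose at ZT22 (37.97 ± 5.21 CPM at ZT6, SD, n = 4, and 106 ± 32.6 at ZT22, log2 change from the other times 1.14, adjusted p = 2.55e-06), whereas in FANKO it was 45.1 ± 4.19 CPM at ZT6 and 42.1 ± 6.51 at ZT22 (log2 change -0.07, adjusted p = 0.919). The difference in genotype effect was -1.21 ± 0.20 (adjusted p = 0.00552). *Cdr2*, which encodes an antigen of cerebellar degeneration, and *2810004N23Rik* were higher in FANKO at ZT6 (1.36 and 0.72) and at ZT10 (1.33 and 0.60). At ZT22 each had a log2 fold change of -0.22 that did not pass (difference -1.12 and -0.60, adjusted p = 0.0097 and 0.00434). The effect on both was smaller at ZT18 than at ZT6 and ZT10, and against ZT18 singly neither passed 0.01, as for all genes. These 3 calls were the least stable. *Slc25a25* lost its call without 6 of the 8 ZT22 libraries (libraries 1, 2 and 3 of each genotype, adjusted p up to 0.0329), *Cdr2* without 7 (all but WT library 4, up to 0.0513) and *2810004N23Rik* without 5 (WT 1 and 2 and FANKO 1, 2 and 4, up to 0.0495). They also lost it without 8, 17 and 8 of the 24 libraries of the other time points, in the same order (up to 0.0148, 0.0185 and 0.0153).

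**Figure D3:**
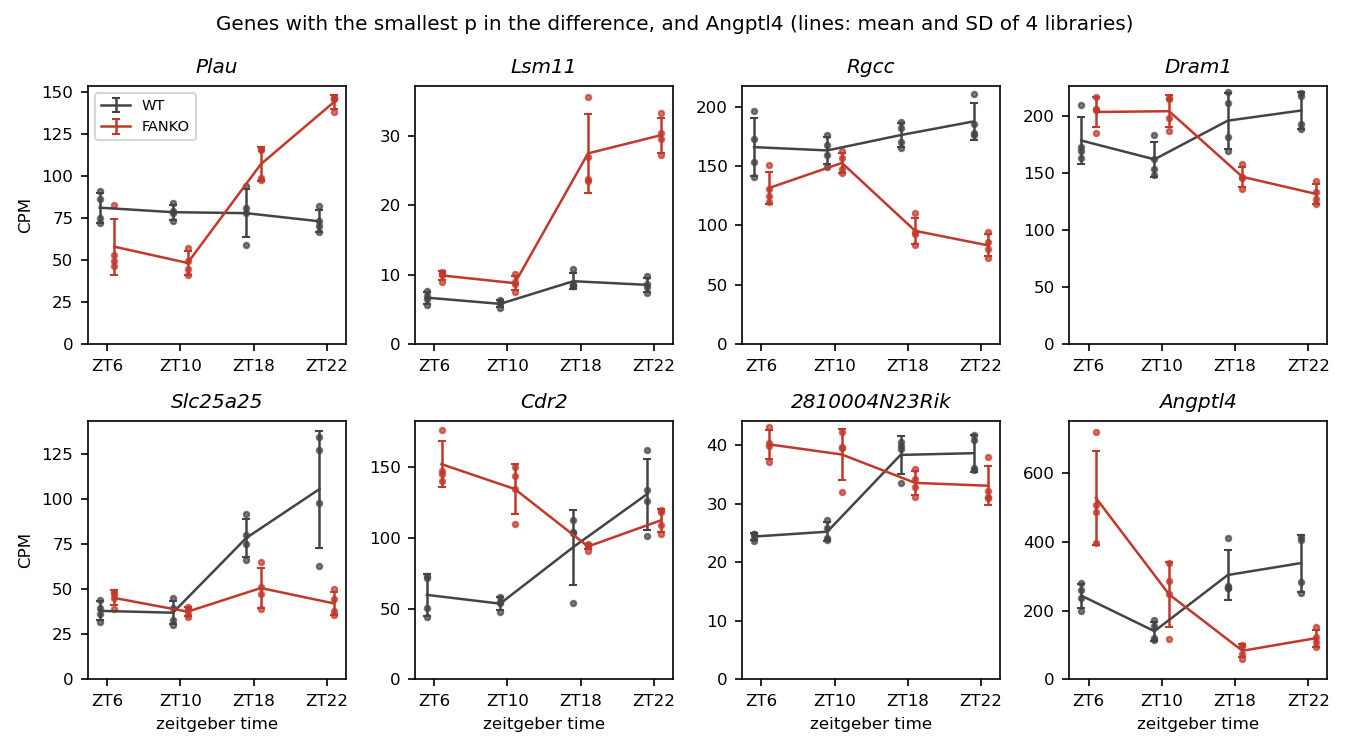
Levels of the 7 genes whose genotype effect at ZT22 differed from the other time points at an adjusted p below 0.01, and of *Angptl4* (adjusted p = 0.0174), in CPM against zeitgeber time, with points for libraries and lines for the mean and SD of 4. The time points are evenly spaced on the axis. *Plau* goes from 48.3 ± 6.93 to 144 ± 4.13 CPM in FANKO between ZT10 and ZT22, and *Slc25a25* from 37.97 ± 5.21 at ZT6 to 106 ± 32.6 at ZT22 in WT.

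Among stress genes that passed 0.05 but not 0.01, *Angptl4*, an inhibitor of lipoprotein lipase, was at 251, 283, 405 and 414 CPM in WT and 108, 93.1, 152 and 124 CPM in FANKO at ZT22. The log2 fold change was -1.51 at ZT22 and -1.88 at ZT18, but 1.12 at ZT6 and 0.82 at ZT10 (difference -1.52 ± 0.28, adjusted p = 0.0174). *Pfkfb3* had a log2 fold change of -2.16 at ZT22 (difference from the mean of the other times -1.28, adjusted p = 0.0237). WT library 2 stood apart for it at ZT22, with 749.3 CPM against 349.6 to 378.1 in the other WT libraries. *Herpud1*, the ER gene with an ATF4 core in its promoter, had a log2 fold change of 1.21 at ZT22, 0.83 at ZT18, 0.26 at ZT10 and 0.36 at ZT6 (difference 0.72 ± 0.15, adjusted p = 0.0309). Its FANKO mean was 68.3 ± 4.15 CPM at ZT6 and 120.4 ± 25.7 at ZT22 (SD, n = 4), and its WT mean 52.97 ± 4.99 and 52.0 ± 2.72. DESeq2 gave *Herpud1* an adjusted p of 0.00198.

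Fewer heat shock chaperones passed at ZT22 and ZT18 than at ZT6 and ZT10. Of the 53 genes, 27 were higher in FANKO at ZT6 (50.9% against 15.9% of all genes) and 27 at ZT10 (50.9% against 15.1%), and 5 at ZT18 (9.43% against 7.84%), beside the 6 at ZT22. The median log2 fold change was 0.34 at ZT6, 0.41 at ZT10, 0.16 at ZT18 and 0.13 at ZT22. In the difference from the mean of the other time points, 20 members had a more negative and 2 a more positive effect at an unadjusted p below 0.05, together 41.5% of the list against 10.7% of all genes. The 20 had differences from −0.56 to −0.20 and log2 fold changes at ZT22 from −0.28 to 0.68. Against single time points at the same p, 23 members were more negative than at ZT6 (6.89% of all genes) and 24 than at ZT10 (7.22%), and none than at ZT18 (2.3%, edgeR, with 2 more positive). The median difference of the list was −0.19, and that of all genes 0.00073. Such a shift was not particular to this list. The 34 lipid genes had a median difference of -0.227, with 29 of them negative. Their median was -0.396 against ZT6, -0.41 against ZT10 and 0.0108 against ZT18. No heat shock member passed an adjusted p below 0.01 (edgeR, DESeq2 and limma-voom all gave 0), and the smallest was 0.131. The 20 became 12 without WT ZT22 library 1 or FANKO ZT22 library 4, 10 without FANKO ZT22 library 2, 8 without ZT6, 10 without ZT10, 13 with library size alone, and 16 without WT library 4 and FANKO library 2.

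*Hspa8* had a log2 fold change of 1.01 at ZT6 and 1.03 at ZT10, and of 0.15 at ZT18 and 0.17 at ZT22. The difference from the mean of the other times was -0.56 ± 0.16 (unadjusted p = 0.00138, adjusted p = 0.148), and against ZT6 and ZT10 singly the adjusted p was 0.0419 and 0.0265. *Hspa4*, an HSP110-type exchange factor, had log2 fold changes of 0.50 at ZT6, 0.57 at ZT10 and 0.04 at ZT22 (adjusted p of the difference = 0.131). The co-chaperone genes *Dnaja1* and *Ahsa1* had log2 fold changes of -0.22 and 0.28 at ZT22, against 0.34 and 0.80 at ZT6. *Hsp90aa1* had one of 0.01 at ZT22 and 0.64 at ZT10. The difference of these members from ZT18 singly did not pass either, and they were picked after their values were seen.

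The same contrast can be read from the levels. *Hspa8* in WT was 286 ± 36.0 CPM at ZT6, 243 ± 24.5 at ZT10, 611 ± 100.4 at ZT18 and 793 ± 151 at ZT22 (SD, n = 4). In FANKO it was 574 ± 17.04, 497 ± 86.0, 680.3 ± 87.0 and 891 ± 97.1 CPM. The FANKO mean was above the WT mean by several SD at ZT6 and ZT10 and within 1 SD (of WT) of it at ZT18 and ZT22. At ZT22 against the mean of the other times, *Hspa8* was higher by 1.18 in WT (adjusted p = 1.08e-08) and by 0.62 in FANKO (adjusted p = 0.000809) on the log2 scale. Over the list, 14 of 53 genes were higher at ZT22 than at the other times in WT (26.4% against 2.03% of all genes) and 2 of 53 in FANKO (3.77% against 0.761%), and none was lower in either (0.929% and 0.577% of all genes). At an unadjusted p below 0.05, edgeR gave 32 higher and 1 lower in WT (12% and 11% of all genes), and 17 higher and 0 lower in FANKO (7.82% and 6.47%). These contrasts use the same libraries as the difference above and are not a further test of it.

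ATF4 genes were higher in FANKO at all 4 time points. Of the 40, 28 were higher at ZT6, 25 at ZT10 and 20 at ZT18, beside 28 at ZT22 (15.9%, 15.1%, 7.84% and 12.3% of all genes), and the median log2 fold change was 0.73, 0.71, 0.43 and 0.64 in that order. Of the 28 higher at ZT22, 22 had a larger log2 fold change there than at the mean of the other times, beside 67.8% of all genes higher at ZT22. Picking genes by their call at ZT22 favours this direction, so the 22 are no evidence of a larger effect. Over all 40 members, the difference was positive in 27 and negative in 13, with a median of 0.0902. In the difference, 6 members were more positive (15% against 4.86% of all genes) and 2 more negative (5% against 5.82%) at an unadjusted p below 0.05. None passed the adjusted threshold in edgeR or DESeq2. *Trib3* had the smallest adjusted p, with a log2 fold change of 3.27 at ZT22 and 2.08 to 2.22 at the other times (difference 1.13 ± 0.29, adjusted p = 0.0957). Its FANKO mean was 46.6 ± 14.55 CPM at ZT22 and 22.97 ± 5.17 at ZT10 (SD, n = 4).

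The *Fgf21* level in FANKO was 2.03 ± 0.672 CPM at ZT6, 2.65 ± 0.680 at ZT10, 9.38 ± 4.72 at ZT18 and 15.4 ± 5.34 at ZT22 (SD, n = 4). It was higher at ZT22 than at the other times in FANKO (log2 change 2.06, adjusted p = 3.17e-05), and in WT the log2 change was 0.26 (adjusted p = 0.831). The difference in genotype effect was 1.80 ± 0.60 and did not pass (adjusted p = 0.23). *Chac1* had a log2 fold change of 2.19 at ZT22 and 0.72 at ZT6 (adjusted p of the difference = 0.249), *Ppp1r15a* 1.45 and 1.16 (0.196), and *Maff* 3.67 and 3.05 (0.103). Among members with a more negative difference, *Cebpb*, a partner of ATF4, had a log2 fold change of 0.35 at ZT22 and 1.32 at ZT6 (adjusted p of the difference = 0.398). *Cdkn1a*, the p21 cell cycle inhibitor, had 0.24 at ZT22 against 1.60 at ZT6 and 2.24 at ZT10 (adjusted p of the difference = 0.187). Against ZT18 singly, none of the genes of this paragraph passed an adjusted p below 0.01 (edgeR), as for all genes.

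**Figure D4:**
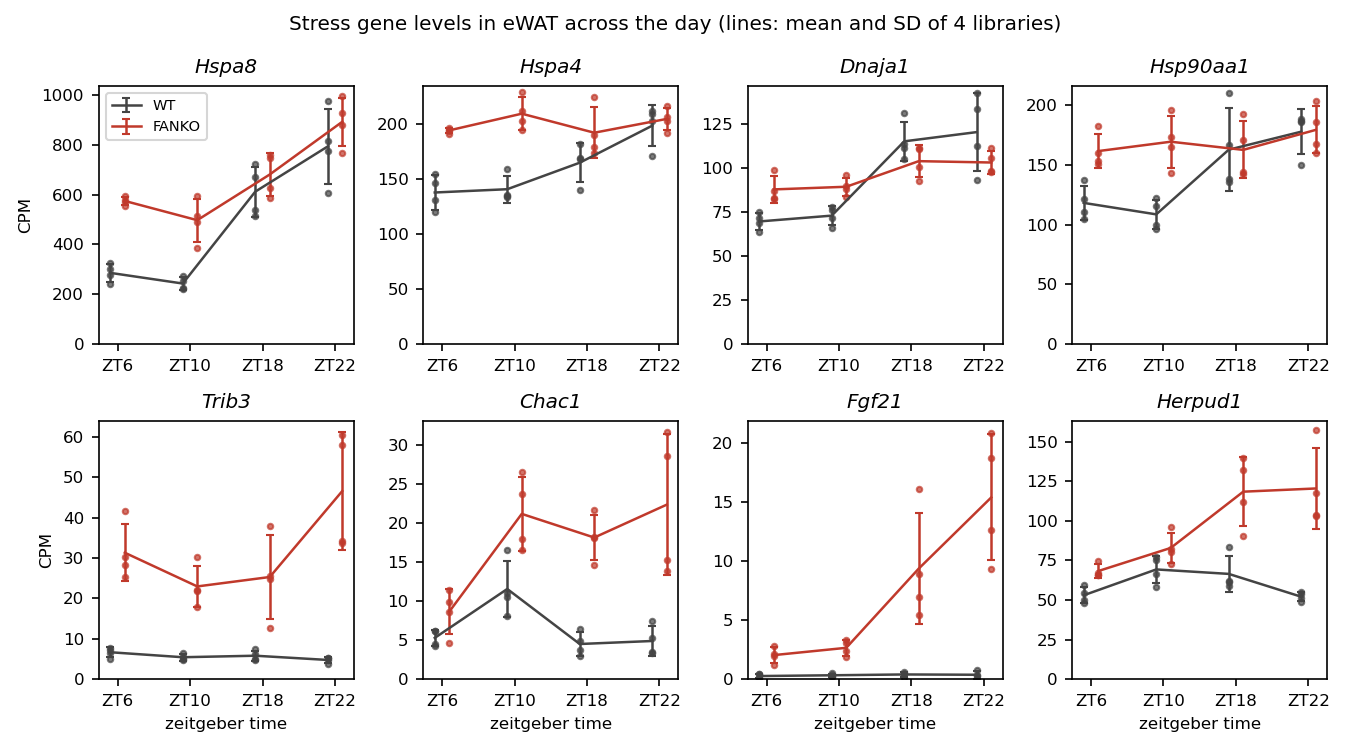
Levels of 4 heat shock genes (top) and of 3 ATF4 genes and *Herpud1* (bottom) in eWAT, in CPM against zeitgeber time, with points for libraries and lines for the mean and SD of 4. The time points are evenly spaced on the axis. The libraries of the heat shock genes overlap at ZT18 and ZT22, and the means of *Trib3* and *Fgf21* are farthest apart at ZT22.

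**Figure D5:**
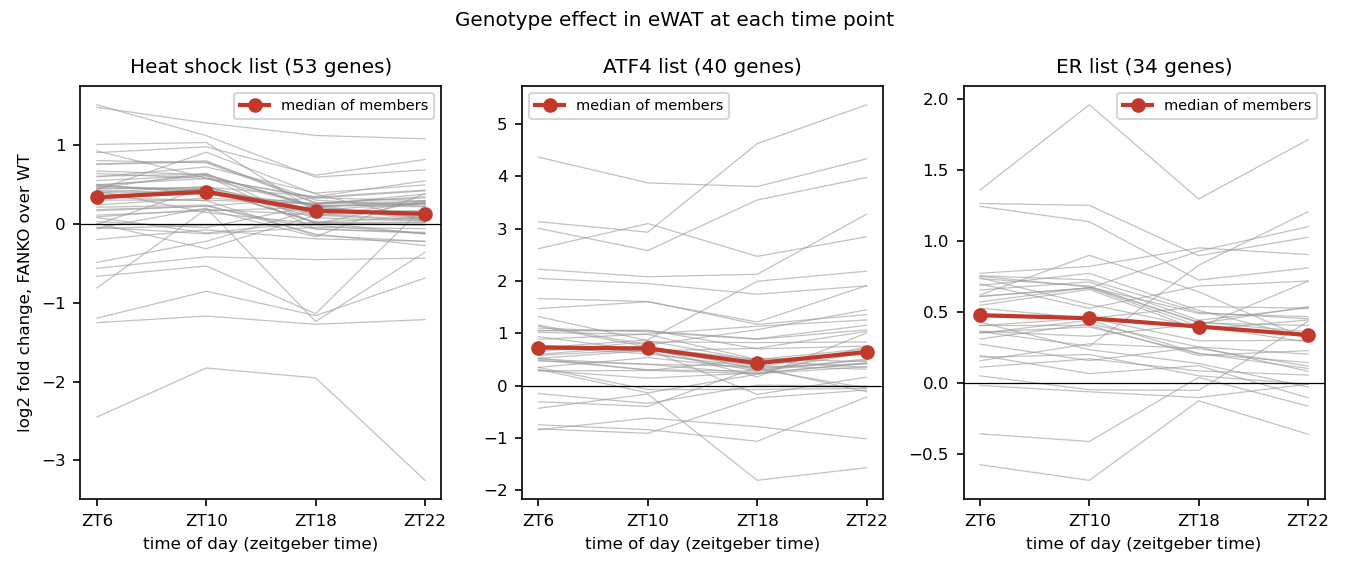
Log2 fold change of FANKO over WT at each time point for the members of the heat shock, ATF4 and ER lists, a thin line for each gene and a thick line for the median, with the time points evenly spaced. The heat shock median goes from 0.41 at ZT10 to 0.13 at ZT22, and the ATF4 median stays between 0.43 and 0.73.

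Of the ER genes, 20 were higher at ZT6, 23 at ZT10, 17 at ZT18 and 16 at ZT22, beside 15.9%, 15.1%, 7.84% and 12.3% of all genes. In the difference, 3 were more positive (*Herpud1*, *Dnajb9* and *Ern1*) and 5 more negative (*Calr*, *Dnajc3*, *Magt1*, *Pdia3* and *Pdia6*) at an unadjusted p below 0.05, beside 4.86% and 5.82% of all genes. Interferon-stimulated genes had 2 more positive and 0 more negative members in the difference (edgeR, unadjusted), while against ZT18 singly 24 of 24 were more positive at an unadjusted p below 0.05 (3.88% of all genes) and 0 passed an adjusted p below 0.05 (edgeR). Their median log2 fold change was 0.84 at ZT18 and 2.36 at ZT22. Of 19 clock and output genes, 7 were more positive and 3 more negative in the difference at an unadjusted p below 0.05 (edgeR). Together these were 52.6% of the list, against 10.7% of all genes. *Dbp*, an output factor, had the smallest adjusted p of the list, with a log2 fold change of 1.38 at ZT22 and -0.45 at ZT10 (adjusted p of the difference = 0.0287).

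The stress genes were then set beside BAT at ZT22, in a fit of all 64 libraries with 20249 genes. In BAT 22.6% of genes were higher and 22.7% lower, and the genotype effect was more positive in eWAT for 19.6% of genes and more negative for 18.3%. Of the 15 genes of mitochondrial chaperones and proteases, 13 were lower in BAT, and 14 had a more positive effect in eWAT. *Hspa9* had a log2 fold change of 1.07 in eWAT and -1.02 in BAT (adjusted p of the difference = 3.89e-14). Of the 40 ATF4 genes, 18 were higher and 7 lower in BAT itself. Their median log2 fold change in this fit was 0.568 in BAT and 0.673 in eWAT. The effect was more positive in eWAT for 18 of the 40 and more negative for 9. *Fgf21* had a log2 fold change of 5.39 in eWAT and 1.23 in BAT, and *Trib3* 3.31 and 0.08 (adjusted p of the difference = 5.78e-07 and 2.64e-10). *Atf3* went the other way, with 1.04 in eWAT and 4.28 in BAT (adjusted p of the difference = 1.61e-08). Heat shock genes were more positive in eWAT in 21 of 53 and more negative in 7, and NRF2 genes in 20 and 4 of 42. In BAT itself, 8 of the heat shock genes were higher and 15 lower, and 10 and 17 of the NRF2 genes. The median log2 fold change of the heat shock list was -0.187 in BAT and 0.158 in eWAT in this fit. That of the NRF2 list was -0.205 in BAT and 0.503 in eWAT. The 24 interferon-stimulated genes were all more negative in eWAT, and all 24 were higher in BAT. *Ifit1* had a log2 fold change of 4.30 in eWAT and 7.10 in BAT.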

How the data were processed

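RNA was sequenced from whole depots with a stranded total RNA kit after removal of ribosomal RNA. The authors aligned the reads with STAR 2.5.3a to GRCm38.p5 and a GENCODE annotation and counted them with featureCounts 1.5.3, per the methods and the submitters' processing notes. The deposited file holds raw counts per gene for the 64 libraries. The strand and multi-mapping options were not given in the sources used here, so overlapping genes and near-identical copies are uncertain. Columns were matched to samples by their descriptions, and all were used.

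The 32 eWAT libraries were fitted with 1 mean per group of genotype and time point in edgeR 4.0.16 (R 4.3.3, quasi-likelihood F-test, TMM scaling, filterByExpr with a minimum count of 10), with Benjamini-Hochberg adjustment over the 19059 genes tested and a threshold of 0.01. Contrasts were FANKO against WT at each time, the difference of that effect at ZT22 from the mean of the others and from each, and ZT22 against the other times within a genotype. Standard errors come from that fit, CPM values from TMM library sizes, and coordinates from GENCODE M21 on GRCm38. Single values had a two-sided exact permutation test. The scripts were tested on simulated data.

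Named genes are *Nampt*, the 8 largest increases and decreases at ZT22 without overlap of libraries and with a mean log2 CPM of at least 1, up to 10 genes of each sign past the threshold in the difference, and of each list those past it and the 4 with the smallest p at ZT22. Predicted genes without a symbol are passed over, and *2810004N23Rik* and members named beyond this rule, such as *Atf4*, *Ddit3*, *Chac1*, *Gdf15*, *Cth*, *Hmox1*, *Hspa5*, *Cidea*, *Dio2*, *Syvn1* and *Cdkn1a*, were chosen after their values were seen. The members and lists were chosen with earlier results of these data known. Promoters came from RefSeq, which matched 346 of 438 list genes. Counting error alone is small at 7456998 to 22233314 counts per library, except for genes under about 1 CPM. Alternatives were other scalings and filters, DESeq2 1.42.0, limma-voom (limma 3.58.1), all 64 libraries, marker covariates, a replicate block and leaving out libraries or time points.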

Additional observations from a re-analysis of the deposited data

Results flagged for a closer look

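In 14 of 128 groups of 4 libraries, 1 library lay far from the other 3, measured as its gap to the nearest one over the whole range of the group. Chance gives about 1 in 20. WT library 4 was low for *Derl1* (250.8 CPM or more in the others, ratio 0.944) and *Hsp90aa1* (149.8 CPM, 0.943). It was high for the sums of skeletal muscle (0.978, mostly *Acta1*), smooth muscle (0.833) and B cell genes (0.867). WT library 2 was high for *Pfkfb3* (749 CPM against 349.6 to 378.1, 0.929). FANKO library 1 was high for *Hspa5* (1472 CPM against 865.9 to 963.5, 0.839) and *Ahsa1* (0.88), and low for *Plau* (137.8 CPM, 0.911). FANKO library 3 was high for *Bag1* (0.894), *2810004N23Rik* (0.832) and T cell genes (25.97 CPM against 12.42 to 14.51, 0.845), and low for *Pfkfb3* (0.847). FANKO library 2 was low for *Hspa9* (0.849).

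The genotype effect at ZT22 differed from the mean of the other time points, on the log2 scale, by 1.219 for *Plau*, 0.8905 for *Lsm11*, -0.5968 for *2810004N23Rik*, -0.6705 for *Dram1*, -0.7336 for *Rgcc*, -1.116 for *Cdr2* and -1.209 for *Slc25a25*.

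Between the depots at ZT22, the effect was more positive in eWAT than in BAT for 18 and more negative for 9 ATF4 genes, for 21 and 7 heat shock genes, for 20 and 4 NRF2 genes, more positive for 14 mitochondrial chaperones and proteases, and more negative for 24 interferon-stimulated genes. Of all genes, 19.6% were more positive in eWAT and 18.3% more negative.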

How the results depend on the processing

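Of the 73 named genes called at ZT22, 67 kept call and direction under all alternatives run. The counts of genes at ZT22 moved with library size alone (1237 higher, 3209 lower) and an adjusted p below 0.05 (3034 lower). Leaving out 1 library gave 1807 to 2253 higher and 1502 to 1820 lower. *Mt2*, which did not pass, turned to 0.011 without WT library 4 and FANKO library 2.

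The counts of genes with another effect at ZT22 (2 more positive, 5 more negative) were the least stable. They were 34 and 48 with DESeq2, 5 and 17 with all 64 libraries, 24 and 45 at an adjusted p below 0.05, 23 and 63 without ZT18, 1 and 0 without ZT6, 0 and 0 without ZT10, 1 and 3 with library size alone, 1 and 0 with epididymis markers and 1 and 1 with muscle markers as a covariate, and 1 and 2 without WT library 4 and FANKO library 2, an alternative added after seeing the data. The count was 3 more negative with limma-voom. Leaving out 1 library gave 1 to 6 and 0 to 11. The causes were not tested.

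Heat shock genes higher at ZT22 were 3 with library size alone and 14 at an adjusted p below 0.05, and 5 to 10 without 1 library. Those with a more negative effect at an unadjusted p below 0.05 were 13 with library size alone, 8 without ZT6, 10 without ZT10, and 10 to 21 without 1 library. ATF4 genes higher at ZT22 were 24 to 29. The median difference of the heat shock list stayed below 0 in every setting that gave one. It was not computed without ZT6, ZT10 or ZT18, or without single libraries of those times. Against single time points, the median was -0.291 for ZT6, -0.231 for ZT10 and -0.000347 for ZT18.

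With a replicate block there were 2579 higher and 2096 lower genes at ZT22, 2 and 7 in the difference, 28 ATF4 genes higher, 9 heat shock genes higher and 22 more negative. The labels do not say whether equal numbers mark a pair, so the main fit held no pairing and the block was an alternative only. Same-numbered ZT22 libraries correlated at 0.0387 to 0.171, 3 of 4 above 0.1, and differently numbered ones at -0.2 to 0.11. Over all 16 same-numbered pairs the range was -0.139 to 0.171, with 4 above 0.1. These values do not settle whether the numbers mark pairs. The mitochondrial share did go with the number: replicate 4 had the highest share in 7 of the 8 eWAT groups, and FANKO was above the same-numbered WT library in 4 of 4 pairs at ZT22 and 15 of 16 over all times. WT libraries 2 and 3 correlated best with their own number at ZT22, and WT libraries 1 and 4 did not. Depth limits genes near 1 CPM or below, such as *Gdf15* and *Fgf21* in WT.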
